A study of Rattus norvegicus with 15 samples.

Results

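Heat shock proteins and their DnaJ and Bag co-chaperones were measured in rat gastrocnemius muscle after early protein restriction. Members were all probe sets whose only gene symbol starts with Hsp (without Hspg2), with Dnaj or with Bag and a digit, or is Hsf1 or Hsf2. The rule gave 110 of the 31042 probe sets tested, for 72 of the 14217 genes that have a probe set of their own, and used no measured value. RNA came from 15 male Wistar rats bought at 3.5 weeks of age, with 1 Affymetrix array of the rat genome for each rat. CN rats (n = 4) ate 15% casein and LP rats (n = 4) a calorie-matched diet with 8% casein for 4 weeks. CN-R (n = 3) and LP-R (n = 4) rats had the same first 4 weeks and were sampled on day 84. By the methods, LP-R rats then went back to 15% casein, whereas the labels leave every rat on its first diet. All rats were fasted for 16 h before sampling. CN-R replicate 4 was placed by its title, since its treatment field names restriction, and no CN-R replicate 3 was analysed here. The labels do not say what equal replicate numbers share. The tissue is a whole muscle, so fewer cells of a type and less RNA per cell cannot be told apart. Markers of fast muscle fibers were bright, with mean log2 signals of 14.03 for Ckm and 14.07 for Acta1 in CN.

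Cells answer misfolded protein with chaperones that hold, refold or pass on unfolded chains. The Hsp70 proteins do so with ATP, which DnaJ proteins (also called Hsp40) make them split and which Hsp110 and Bag proteins help them exchange. Hsp90 finishes the folding of kinases and receptors, the chaperonin of Hspd1 and Hspe1 works in mitochondria, and small heat shock proteins hold unfolded chains without ATP and guard the contractile apparatus of muscle. Heat shock factors such as Hsf1 bind heat shock elements in the promoters of many of these genes.

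After 4 weeks of restriction, several chaperones of the Hsp70 system were called higher. Rank products, which score how often a probe set lies at the top of the list of changes in pairs of arrays, called 11 member probe sets of 8 genes higher in LP than in CN and 1 probe set lower, with the share of false calls (pfp) estimated at 0.05 or less. Higher were Hspa1a, Hsph1, Hspa4, Dnaja1, Dnaja4, Dnajb1, Dnajb4 and Hspb1, and lower was Hsp90ab1. Of the 19 measured genes on a list of stress-inducible members and regulators, 6 were called higher, 1 lower and the rest in neither direction. Over all probe sets, 1.68% were called higher and 1.58% lower. The permutations behind the pfp take all probe sets to vary alike, whereas the FARMS summary of the authors holds most probe sets nearly constant. The SD passed 0.01 on the log2 scale in 34 of the 110 members over the 8 early arrays (12.8% of all probe sets). Ranked among such varying probe sets alone, 0 members were called in either direction. The share of all varying probe sets called in that ranking is not given, so the 0 cannot be read as particular to the members. By limma, which uses the spread between rats, 0 members had an adjusted p up to 0.05 (0% of all probe sets). At an unadjusted p under 0.05 by limma there were 7 members, of which 4 were nearly constant, against 7.54% of all probe sets. The median change was 4.3e-06 over the 110 members and -1.2e-07 over all probe sets, and among varying probe sets 0.09 and 0.02. Of the varying members 88.2% had a mean above CN, as had 57.6% of all varying probe sets.

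**Figure D1:**
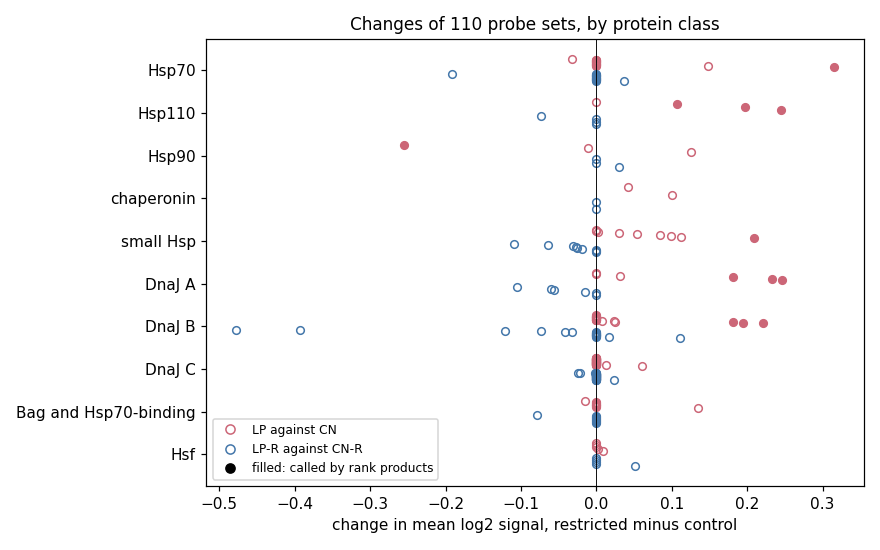
Change in mean log2 signal, restricted minus control rats (x axis), for each of 110 probe sets by protein class (y axis), shown apart for the early and the late arrays. Filled points were called by rank products: 11 above 0 and 1 below 0 in LP, and 0 in LP-R.

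Hspa1a, the stress-inducible Hsp70, had log2 signals of 10.91, 11.12, 10.92 and 11.38 in CN replicates 1 to 4 and of 11.48, 12.03, 11.32 and 10.77 in LP replicates 1 to 4. LP replicate 2 was the highest of the 8 rats and LP replicate 4 the lowest, so the groups overlapped. The mean was 1.24-fold higher in LP, by 0.31 on the log2 scale (SE 0.28, pfp 0.0115), and the exact permutation p over the 70 splits of the rats was 0.343. The call was lost without LP replicate 1 (0.29) or LP replicate 2 (0.10). Hspa1a and Hspa1b are nearly identical copies, so the signal cannot be given to one of them with certainty.

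Hsph1, an Hsp110 that recharges Hsp70 with ATP, was called higher in both its probe sets. In the brighter, CN rats had 9.49, 9.61, 9.38 and 9.58, and LP rats 9.87, 9.98, 9.78 and 9.40. LP replicates 1 to 3 lay above every CN rat and LP replicate 4 among the lowest. The change was 0.24 (SE 0.14, pfp 0.0146) on the log2 scale there and 0.20 (SE 0.14, pfp 0.0315) in the other probe set. Both calls were lost without LP replicates 1 (0.21 and 0.18), 2 (0.17 and 0.10) or 3 (0.24 and 0.20).

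Hspa4, another Hsp110, had 9.37, 9.48, 9.42 and 9.47 in CN and 9.55, 9.55, 9.59 and 9.48 in LP. The groups did not overlap in the unrounded values, and the difference was small, at 0.11 on the log2 scale (SE 0.03, pfp 0.0397). Its exact permutation p was 0.0286, the smallest that 4 against 4 rats allow, and its limma adjusted p was 0.620. The call was lost with quantile normalization (0.10), without any 1 of the LP rats (0.09 to 0.13) and without CN replicate 1 (0.08).

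Dnaja1, a farnesylated cytosolic DnaJ protein that works with Hsp70, was called higher in both probe sets. In the brighter, CN rats had 10.41, 10.44, 10.29 and 10.56 and LP rats 10.98, 11.04, 10.55 and 10.05. LP replicates 1 and 2 were the highest of the 8 rats and LP replicate 4 was the lowest. The changes were 0.23 (SE 0.24, pfp 0.0213) and 0.25 (SE 0.28, pfp 0.0199) on the log2 scale, with an exact permutation p of 0.343 for each. Without LP replicate 1 they were 0.12 and 0.13, and without LP replicate 2 they were 0.10 and 0.06, all not called. Without LP replicate 3 the change in the brighter was 0.27 and not called.

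Dnaja4, a DnaJ A protein abundant in muscle, had 10.75, 10.74, 10.71 and 10.83 in CN and 10.94, 10.99, 10.93 and 10.89 in LP. All 4 LP rats lay above all CN rats. The change was 0.18 on the log2 scale (SE 0.03, pfp 0.0148), a 1.13-fold difference, with an exact permutation p of 0.0286 and a limma adjusted p of 0.525. Its other varying probe set differed by 0.03 (SE 0.04) and was not called. The call was lost without LP replicate 1 (0.18), 2 (0.16) or 3 (0.18). Dnaja4 and Hspa4 were the members whose groups did not overlap, 2 of 110, against 1.01% of all probe sets.

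Dnajb1, the main heat-inducible Hsp40, varied most among rats. In the brighter of its called probe sets, CN rats had 9.11, 8.15, 8.32 and 8.05 and LP rats 9.49, 9.24, 8.01 and 7.68. LP replicates 1 and 2 were the highest, CN replicate 1 was close to them, and LP replicates 3 and 4 were the lowest. The change was 0.19 on the log2 scale (SE 0.51, pfp 0.0321, exact permutation p 0.800), and in the other probe set it was 0.22 (SE 0.41, pfp 0.0331). The calls and the direction rested on 2 rats. Without LP replicate 1 the changes were -0.10, now called lower, and 0.03, not called. Without LP replicate 2 they were -0.02 and -0.02, and both were called lower. When replicate numbers 1 and 2 were set apart from 3 and 4 in the ranking, the call of the brighter probe set was lost at the same 0.19.

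Dnajb4, a relative of Dnajb1, had 10.70, 10.77, 11.09 and 11.03 in CN and 10.91, 11.26, 11.20 and 10.95 in LP. The groups overlapped, with LP replicates 2 and 3 above all CN rats. The change was 0.18 on the log2 scale (SE 0.13, pfp 0.0397). The call was lost without any 1 LP rat (0.12 to 0.24), without CN replicate 1 (0.11) and without CN replicate 2 (0.14).

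**Figure D2:**
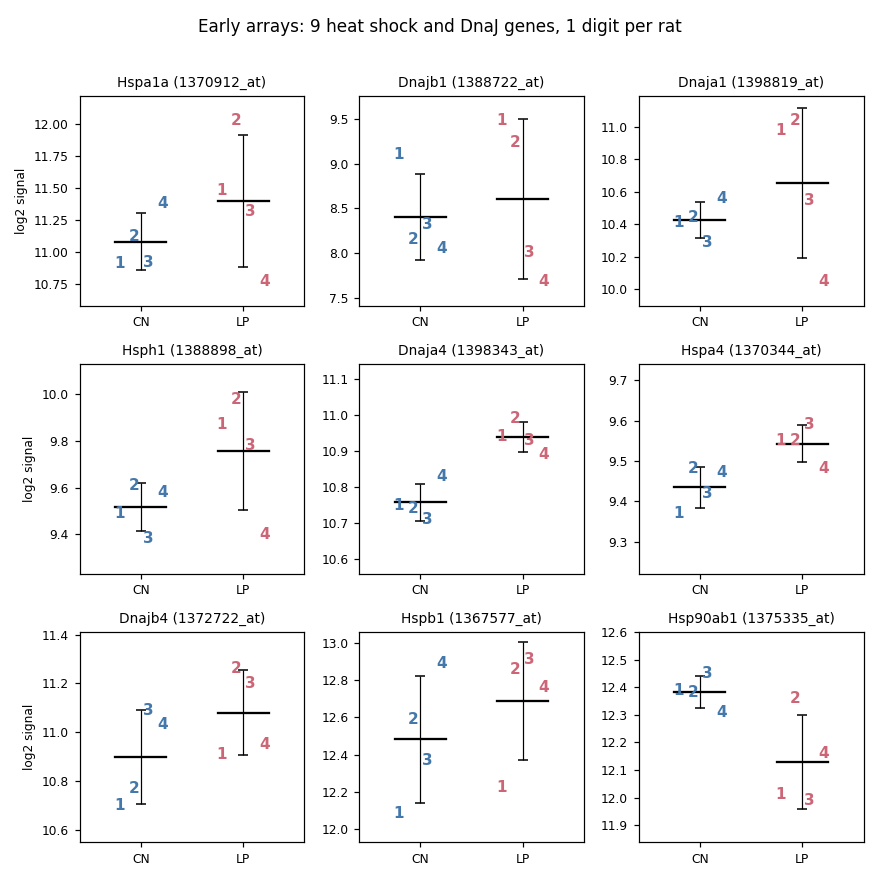
Log2 signals (y axes, each with its own range) of 9 genes in CN and LP rats, 1 panel for each gene with its probe set. Each digit is a rat and gives its replicate number, the thick bar is the mean and the thin bars are the SD. LP replicates 1 and 2 lie highest for Hspa1a, Dnajb1, Dnaja1 and Hsph1, and Dnaja4 and Hspa4 have no overlap.

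The highest rats were the same in several members. In 10 of the 34 varying members (29.4%) LP replicates 1 and 2 were the 2 highest of the 8 rats, compared with 387 of all 3974 varying probe sets (9.74%). These were both probe sets of Dnaja1, Dnajb1 and Hsph1, the called one of Dnaja4, and those of Hspa1a, Hspb3 and Dnajc19. Hspb1, Dnajb4 and Bag3 had other rats on top. LP replicate 4 was the lowest of all rats for Hspa1a, for both probe sets of Dnaja1 and Dnajb1, for 1 of Hsph1 and for the second of Hsp90ab1, 7 of the 34 (20.6%, against 9.51% of all varying probe sets). Since the 11 probe sets were called for being higher in LP, their values within replicate numbers are a description. Within numbers 1 and 2 all 11 were higher in LP, as were 97.5% of all 521 varying probe sets called higher. Within numbers 3 and 4, 6 of the 11 were higher (94.4% of the 521), and 10 of the 11 differed by more within 1 and 2 (50.5% of the 521). For Dnajb1, the brighter probe set gave 0.73 within numbers 1 and 2 and -0.34 within numbers 3 and 4. For Hspa1a the values were 0.74 and -0.11, and for the brighter probe set of Dnaja1 0.59 and -0.12. Dnaja4 gave 0.22 and 0.14, Hspa4 0.12 and 0.09, and Hspb1 0.21 and 0.21. Whether the replicate numbers have a part in these differences was not tested.

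Promoter letters were looked up for members that moved together. RefSeq (build GRCr8) gave promoters of 250 bases before and 50 after the start for 59 of the 72 genes, with 60 promoters in all. A heat shock element was read as 2 units, GAANNTTC or TTCNNGAA, on either strand. Of 33469 promoters, 15.9% held it, as did 15 of the 60 member promoters (25%). Of the 7 genes called higher that have a promoter, Dnaja1, Dnajb1, Hspb1 and Hsph1 held it, and Hspa1a, Hspa4 and Dnaja4 did not. Only exact letters within these bases were looked for. Elements with imperfect units or farther away are missed, so no match does not mean no element. Extended to 3 units in turn, each 2 bases from the next, it occurred in 0.798% of all promoters and in 4 members, Dnaja1, Hsph1, Hspd1 and Hspe1. Every 3-unit match also holds the 2-unit letters. In Dnaja1 the 3 units lie after the start. The stretches before the start are printed with these units in capitals, for genes called higher (Hsph1, Dnajb1, Hspb1) and for genes with units that were not called (Bag3, Hspb8, Hspe1). The promoter of Hspd1, which lies head to head with Hspe1, holds the same element. A further 2-unit match of Hsph1, at chr12:10427263-10427270, is cut by the left end of its stretch and is not marked.
Hsph1, chr12:10427268-10427367, plus strand: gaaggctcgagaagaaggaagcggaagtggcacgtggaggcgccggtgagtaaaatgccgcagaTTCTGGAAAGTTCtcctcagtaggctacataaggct
Dnajb1, chr19:41431142-41431241, minus strand: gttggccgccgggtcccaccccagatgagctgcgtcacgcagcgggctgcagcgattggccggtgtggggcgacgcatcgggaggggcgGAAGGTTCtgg
Hspb1, chr12:26432367-26432466, minus strand: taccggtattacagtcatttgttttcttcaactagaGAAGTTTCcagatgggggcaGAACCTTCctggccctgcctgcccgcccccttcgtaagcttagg
Bag3, chr1:192533282-192533381, plus strand: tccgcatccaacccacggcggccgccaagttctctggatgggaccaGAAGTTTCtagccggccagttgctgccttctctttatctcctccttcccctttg
Hspb8, chr12:45837208-45837307, plus strand: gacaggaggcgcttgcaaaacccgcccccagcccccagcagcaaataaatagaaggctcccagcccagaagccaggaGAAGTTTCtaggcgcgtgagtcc
Hspe1, chr9:64084221-64084320, plus strand: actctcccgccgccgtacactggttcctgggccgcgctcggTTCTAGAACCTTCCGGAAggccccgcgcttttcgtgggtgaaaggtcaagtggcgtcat

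The constitutive Hsp90, Hsp90ab1, was the member called lower. Its signals were 12.39, 12.38, 12.45 and 12.31 in CN and 12.01, 12.36, 11.99 and 12.16 in LP. LP replicate 2 lay within the CN range and the other LP rats were below it. The mean fell by 0.25 on the log2 scale (SE 0.09, pfp 0.0096), a 1.19-fold difference, with an exact permutation p of 0.0571 and a limma adjusted p of 0.628. The call was lost without CN replicate 1 (-0.25) or CN replicate 3 (-0.23). A second probe set of the gene differed by -0.01 (SE 0.02). The probe sets of this gene thus disagree in size.

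Chaperones of the endoplasmic reticulum and of mitochondria were not called. Hspa5 (BiP), the Hsp70 of the endoplasmic reticulum, had 10.65, 11.33, 11.27 and 11.32 in CN and 11.12, 11.25, 11.49 and 11.30 in LP, with 1 low rat, CN replicate 1. Its difference of 0.15 (SE 0.18) was -0.02 without that rat. Hsp90b1, the Hsp90 of the same compartment, was lowest in the same rat (10.08, against 10.41 to 10.77 in the other 7) and differed by 0.13 (SE 0.14). CN replicate 1 was the lowest of 8 rats in 12 of the 34 varying members (35.3%), cytosolic, mitochondrial and small heat shock genes among them, and in 18.2% of all varying probe sets. Of the 10 measured members of the endoplasmic reticulum 3 genes varied, these and Dnajb9, which differed by 0.02 (SE 0.04). For the mitochondrial chaperonin, Hspd1 had 11.54, 11.65, 11.55 and 11.65 in CN and 11.71, 11.74, 11.75 and 11.60 in LP, so that 3 LP rats exceeded all CN rats. It differed by 0.10 (SE 0.05, pfp 0.0703, exact permutation p 0.0857), and its partner Hspe1 by 0.04 (SE 0.03). Hspd1 was called without CN replicate 4, at 0.12. Hspa9, the mitochondrial Hsp70, was nearly constant in the early arrays in all its probe sets.

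The ER stress element, CCAAT with CCACG after 9 further bases, on either strand, was found in 0.0657% of all promoters and in 3 member promoters, those of Hspa5, Hsp90b1 and Dnajc3. None of these 3 genes was called. Hspa5 and Hsp90b1 are shown because their values varied in the early arrays, with the elements in capitals.
Hspa5, chr3:38452916-38453015, plus strand: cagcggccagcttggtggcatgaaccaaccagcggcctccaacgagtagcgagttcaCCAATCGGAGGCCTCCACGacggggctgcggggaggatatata
Hsp90b1, chr7:23012339-23012477, minus strand: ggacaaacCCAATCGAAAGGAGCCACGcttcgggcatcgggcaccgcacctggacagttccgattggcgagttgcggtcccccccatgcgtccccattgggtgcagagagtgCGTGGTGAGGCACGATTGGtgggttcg

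Among small heat shock proteins, Hspb1 (Hsp27), which protects actin filaments, was called higher. CN rats had 12.08, 12.59, 12.37 and 12.89 and LP rats 12.22, 12.86, 12.91 and 12.76. The groups overlapped over most of their range, and replicate 1 was the lowest in each. The change was 0.21 on the log2 scale (SE 0.23, pfp 0.0302, exact permutation p 0.343). It was 0.08 without CN replicate 1, and the call was also lost without CN replicate 3 (0.17) or LP replicates 2 (0.15), 3 (0.13) or 4 (0.18). The other small heat shock proteins were not called, and all 7 varying probe sets of the class had a mean above that of CN, by 0.002 to 0.21. Hspb3, a muscle member, differed by 0.11 (SE 0.07, pfp 0.0777), and Hspb6 (Hsp20), by 0.05 (SE 0.04).

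Hspb7 and Hspb8, which keep the sarcomere in order (Hspb8 with Bag3), differed more between replicate numbers than between diets. The brighter probe set of Hspb7 had 11.97, 12.29, 12.56 and 12.41 in CN and 12.00, 12.27, 12.74 and 12.62 in LP. The brighter of Hspb8 had 11.32, 11.40, 11.85 and 11.88 in CN and 11.35, 11.60, 11.84 and 11.77 in LP. In both, replicates 3 and 4 of either diet lay above all replicates 1 and 2. The same held for the second probe set of each gene, 4 of the 34 varying members (11.8%), while 4.71% of all varying probe sets split this way and 4.93% the other way. The means of LP and CN differed by 0.10 (SE 0.21) for Hspb7 and 0.03 (SE 0.18) for Hspb8. Hspb3 ran the other way within each diet, with 9.24, 9.29, 9.13 and 9.12 in CN and 9.45, 9.35, 9.24 and 9.19 in LP.

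**Figure D3:**
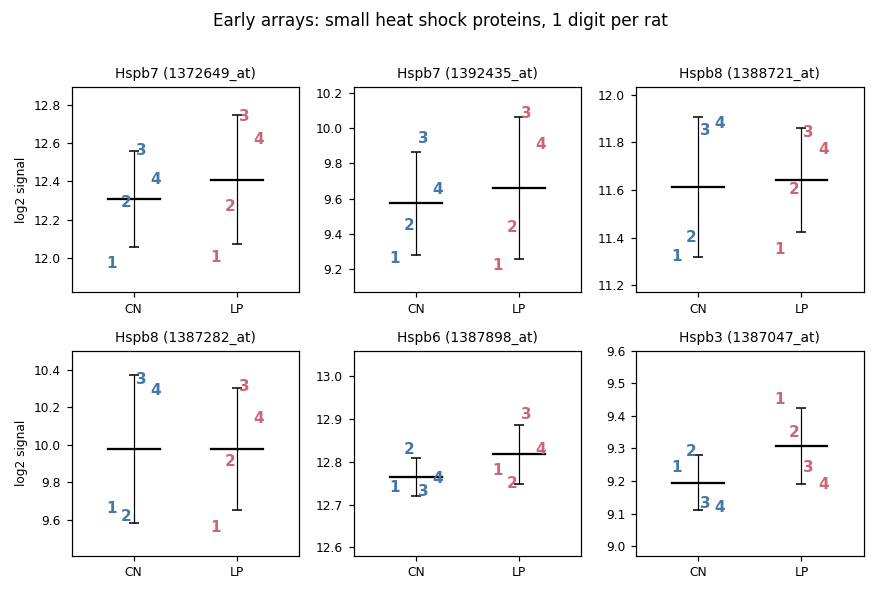
Log2 signals (y axes, each with its own range) of Hspb7 (2 probe sets), Hspb8 (2 probe sets), Hspb6 and Hspb3 in CN and LP rats. Each digit is a rat and gives its replicate number, the thick bar is the mean and the thin bars are the SD. For Hspb7 and Hspb8 the digits 3 and 4 lie above 1 and 2 in both diets.

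Bag3, the partner of Hspb8 in clearing damaged filament proteins, had 10.02, 9.99, 10.22 and 10.46 in CN and 10.12, 10.46, 10.49 and 10.16 in LP. The groups overlapped. The difference of 0.14 (SE 0.15, pfp 0.0715) was not called with all rats, but was with the replicate block (0.14), with pairs within replicate numbers 1 and 2 or 3 and 4 (0.14) and without CN replicate 4 (0.23). Bag2 differed by -0.01 (SE 0.18), and without LP replicate 3 it was called lower, at -0.14. Of the 8 genes of Bag and Hsp70-binding proteins, Bag1, Bag4, Bag5, Bag6, Hspbp1 and Hspbap1 were nearly constant in both array sets.

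The DnaJ C class is the largest, with 38 probe sets of 23 genes, and 20 of these genes were nearly constant throughout. Dnajc15 and Dnajc19, both of the mitochondrial import machinery, varied and differed by 0.06 (SE 0.05) and 0.01 (SE 0.006). Of the DnaJ B genes beside Dnajb1 and Dnajb4, Dnajb5 differed by 0.02 (SE 0.03), while Dnajb6, a gene of inherited muscular dystrophy, was nearly constant. The stress regulator Hsf1 was nearly constant too, and Hsf2 differed by 0.002 (SE 0.09) in its brighter probe set. Hspa2, an Hsp70 best known from testis, differed by -0.03 (SE 0.09). In all, 43 of the 72 genes were nearly constant in both array sets, which gives no measure of their change.

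Lists of chaperone genes outside the family held 1 to 3 called probe sets or none. Of 14 measured Hsp90 co-chaperones 1 was called higher, Stip1 (Hop), which links Hsp70 to Hsp90, by 0.15 (SE 0.10), and 0 lower, which is 1 of 17 probe sets against 1.68% of all. Of 13 genes of the chaperonin TRiC and of prefoldin, also with 17 probe sets, 1 was called higher, Pfdn6, by 0.165 (SE 0.03), where all LP rats (9.04 ± 0.04, SD, n = 4) exceeded all CN rats (8.87 ± 0.05, SD, n = 4). Of 8 other Hsp70 co-chaperones 0 were called. Of 16 genes of folding in the endoplasmic reticulum and the unfolded protein response 0 were called higher and 1 lower, Canx, by -0.10 (SE 0.05). Of 8 other heat-responsive genes and regulators 0 were called higher and 2 lower, with 3 of 13 probe sets against 1.58% of all. These were Sqstm1 (p62), which carries ubiquitinated protein to autophagy, and Vcp, which pulls such protein out of complexes. The LP rats had 11.19 ± 0.03 (SD, n = 4) for Sqstm1, all below the CN rats at 11.40 ± 0.03 (SD, n = 4), with an exact permutation p of 0.0286. The limma adjusted p was over 0.05 for both, as for all probe sets. Hmox1, another heat-responsive gene, differed by -0.005 (SE 0.20).

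Some markers of other cells were called too. Kdr, Emcn, Cldn5 and Tie1, 4 of the 7 endothelial markers measured, were called higher, of which Kdr did not overlap between the groups, and the mean log2 signal over the list was 8.065 to 8.24 in LP rats and 7.96 to 8.07 in CN rats. Of 7 fibroblast markers 3 were called lower (Col1a1, Col1a2 and Fn1), with list means of 11.47 to 11.55 in LP, within the 11.41 to 11.79 of CN. Another probe set of Col1a1 (-0.09, SE 0.13) and another of Col1a2 (-0.11, SE 0.11) were not called. Col3a1, Lum and Dcn, also not called, had means above CN, by 0.05, 0.04 and 0.04 (SE 0.07 each). Adipoq of 6 adipocyte markers was called higher and Tagln of 4 smooth muscle markers lower, and 0 of 12 fast fiber, 10 slow fiber, 7 leukocyte, 2 erythroid and 2 myelin markers were called. Beside Kdr, these calls had exact permutation p from 0.114 (Emcn and Fn1) to 0.400 (Adipoq). Their part in the changes of the chaperones was not tested.

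In the late arrays, 0 members were called in either direction, and most varying members had means below those of the controls. Over all probe sets, 0.345% were called higher and 0.171% lower. Of the 110 members, 27 varied (9.99% of all probe sets), 21 of them with a mean below CN-R (77.8%, against 66% of all varying probe sets) and 6 above. The median change was -3.2e-06 (-0.03 over the varying members and -0.02 over all varying probe sets). By limma 0 members passed an adjusted p of 0.05 (0% of all probe sets). At an unadjusted p under 0.05 there were 2, both nearly constant (5.04% of all probe sets), and 0 members had groups that did not overlap (0.383%).

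Dnajb1 again had the widest spread. CN-R replicates 1, 2 and 4 had 9.19, 7.63 and 7.79, and LP-R replicates 1 to 4 had 8.14, 7.85, 7.72 and 7.19. CN-R replicate 1 stood far above the other 6 rats, whose groups overlapped. The log2 change was -0.48 (SE 0.48, pfp 0.0934, exact permutation p 0.457) and the second probe set gave -0.39 (SE 0.33, pfp 0.111). Without CN-R replicate 1 the change was 0.02. The probe set was called lower with the replicate block (-0.48), without LP-R replicate 1 (-0.62) and without LP-R replicate 2 (-0.52).

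Hspa1a had 11.09, 9.86 and 9.52 in CN-R and 10.49, 9.71, 9.98 and 9.67 in LP-R. CN-R replicate 1 was again the highest rat and CN-R replicate 4 the lowest. The difference was -0.19 (SE 0.46). Without CN-R replicate 1 it was 0.28 and Hspa1a was called higher. Bag3 had 10.09, 9.99 and 9.84 in CN-R and 9.91, 9.93, 9.85 and 9.90 in LP-R, a difference of -0.08 (SE 0.06), and it too was highest in CN-R replicate 1.

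Dnaja1 had 9.68, 9.33 and 9.34 in CN-R and 9.68, 9.38, 9.40 and 9.11 in LP-R (-0.06, SE 0.17), and in each group replicate 1 was the highest. Hsph1 varied in 1 probe set, at 8.38, 8.41 and 8.42 in CN-R and 8.40, 8.42, 8.30 and 8.20 in LP-R (-0.07, SE 0.06), where LP-R replicates 3 and 4 were low. Dnajb4 differed by -0.07 (SE 0.09), Hspb1 by -0.03 (SE 0.13) and Hspb6 by -0.06 (SE 0.05). Hspa4, Hspd1, Hspe1, Hspa5 and Hsp90b1 were nearly constant in the late arrays. Hsp90ab1 differed by 0.03 (SE 0.08).

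Dnajb9 (ERdj4), a DnaJ protein of the endoplasmic reticulum, came nearest to a call for higher. It had 9.35, 9.29 and 9.53 in CN-R and 9.59, 9.41, 9.46 and 9.54 in LP-R, a difference of 0.11 (SE 0.08, pfp 0.0625). CN-R replicate 4 lay within the LP-R range and the other CN-R rats below it. The gene was called higher without that rat (0.18) and also when it was counted as LP-R (0.19). Counted so, Hsp90ab1 was called higher too (0.09).

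**Figure D4:**
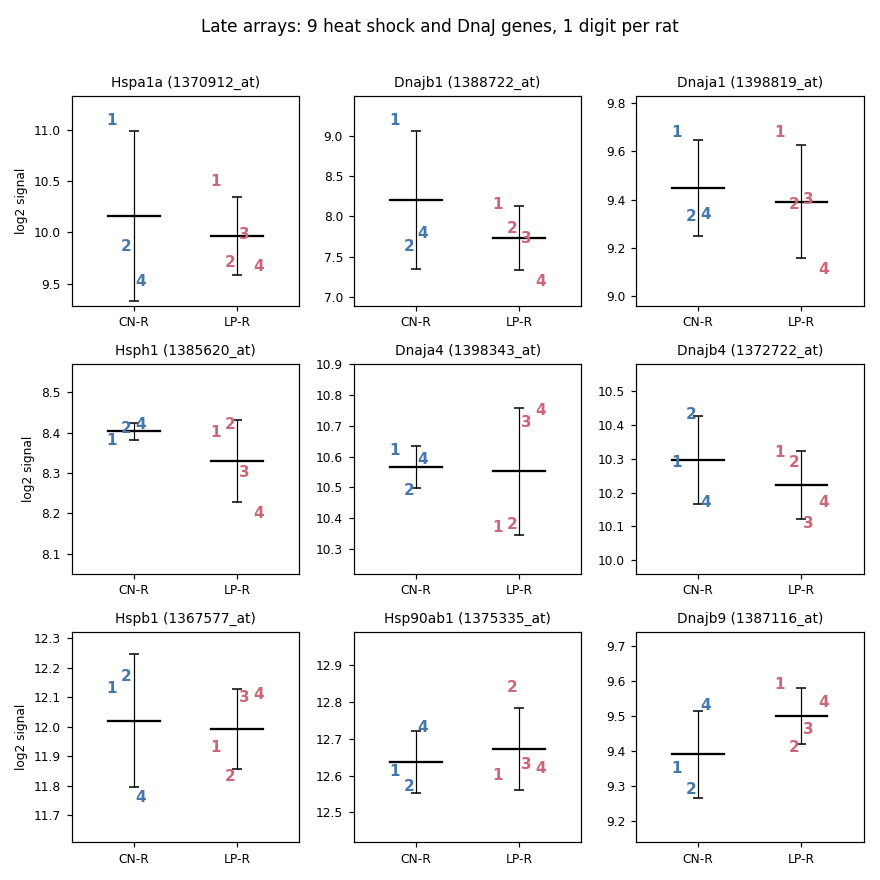
Log2 signals (y axes, each with its own range) of 9 genes in CN-R and LP-R rats, 1 panel for each gene with its probe set. Each digit is a rat and gives its replicate number, the thick bar is the mean and the thin bars are the SD. CN-R replicate 1 is the highest rat for Hspa1a and Dnajb1.

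Several late members split the LP-R rats in 2 pairs. The called probe set of Dnaja4 had 10.62, 10.49 and 10.59 in CN-R and 10.37, 10.38, 10.71 and 10.75 in LP-R, so that LP-R replicates 1 and 2 lay below and 3 and 4 above all controls. The same order was seen in Hsf2 (7.24, 7.01 and 7.07 in CN-R and 6.80, 6.89, 7.43 and 7.51 in LP-R). A probe set of Dnajb5 followed it too (7.83, 7.73 and 7.82 in CN-R and 7.39, 7.43, 7.93 and 7.94 in LP-R). Another of Dnajb5 did as well (8.24, 8.17 and 8.16 in CN-R and 7.98, 7.95, 8.32 and 8.38 in LP-R). The brightest of that gene differed by -0.04 (SE 0.03) with no such order. Hspa9 (6.42 to 6.77 over the late rats) and Dnajc14 (6.89 to 7.11) also had the order. Brighter probe sets of Hsf2 (8.93 and 7.89), Hspa9 (11.36 and 10.14), Dnajc14 (7.58) and Hspb8 (11.35) were nearly constant in the late arrays. The share of the order among all varying probe sets is not given, so it cannot be read as particular to these genes. The varying probe set of Hspb8 had 9.88, 9.91 and 10.07 in CN-R and 9.55, 9.63, 10.05 and 10.13 in LP-R. There only CN-R replicate 4 kept the upper pair from clearing all the controls. Counting both groups, replicate numbers 3 and 4 all lay above 1 and 2 in 4 members, in Dnajc14, Hspb8, Hspa9 and the second probe set of Dnaja4 (14.8% of the varying members, against 7.52% of all varying probe sets), and below them in 2, Dnajb4 and Bag3 (7.41%, against 10.3%). The means differed between the diets by 0.05 (SE 0.22) for Hsf2 and 0.04 (SE 0.11) for the varying probe set of Hspa9. For Dnajb5 these differences were -0.12 (SE 0.18) and -0.03 (SE 0.13), in the order printed, and for Hspb8 -0.11 (SE 0.18). For Dnaja4 they were -0.01 (SE 0.13) in the called probe set and -0.11 (SE 0.16) in the second. Dnajb14 and Dnajc19 differed by 0.02 each (SE 0.05 and 0.04), and Hspb7 by -0.02 (SE 0.15).

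The change in LP and the change in LP-R were then set side by side for the 21 members that varied in both array sets. Of these, 18 had a mean above the controls in LP and below them in LP-R, 2 were above in both, 0 below in both, and 1, Hsp90ab1, was below in LP and above in LP-R. That pattern, above in LP and below in LP-R, was held by 85.7% of these members and by 35.1% of the 2073 probe sets that varied in both. Of the 11 probe sets called higher in LP, 9 varied in the late arrays, all 9 with a mean below CN-R, as had 194 of 307 such probe sets over the whole array (63.2%). Without 1 rat the late change reached 0.28 for Hspa1a, 0.02 for Dnajb1, and 0.05 for Dnaja1, Dnaja4 and Hspb1. The groups of the 2 comparisons share no rat, but the members share their rats within each set, so the 18 are not 18 independent observations. Tested for each probe set, by permuting the diets within both array sets (2450 splits), the changes did not differ at an adjusted p of 0.05 for any of the 31042 probe sets, and the smallest adjusted p of a member was 0.796. At an unadjusted exact p under 0.05 there were 5 members, of which 3 were nearly constant in both array sets. The share of all probe sets at that p is not given, so the 5 cannot be read as particular to the members. The smallest exact permutation p of a member was 0.0102, for Hspa4, whose late values were nearly constant. For Hsp90ab1 it was 0.0498 and for Hsph1 0.0959 in the exact permutation test, both before adjustment.

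**Figure D5:**
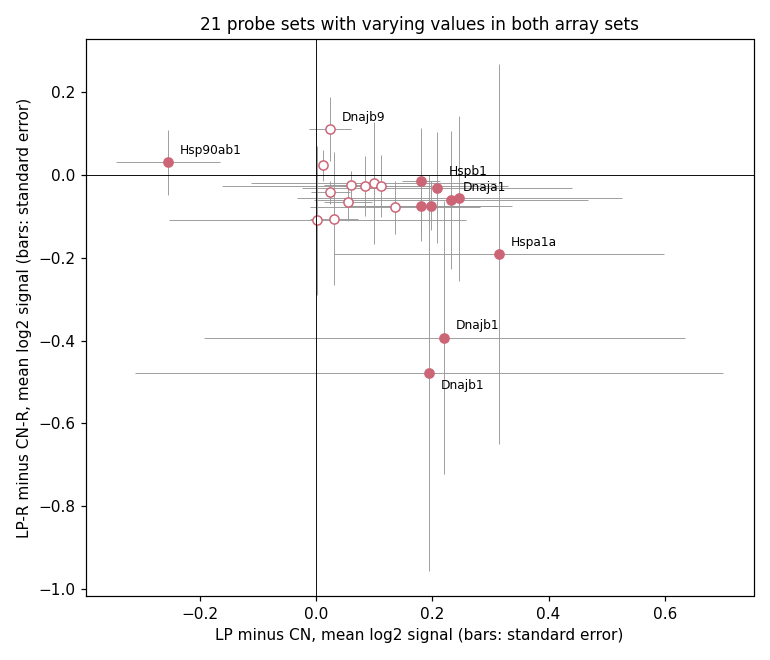
Change in mean log2 signal of LP against CN (x axis) and of LP-R against CN-R (y axis) for the 21 probe sets that varied in both array sets, with standard errors as bars. Filled points were called by rank products in LP, and 18 points lie to the right of 0 and below 0.

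In the late arrays, Myh1 of the fast fiber markers was called higher in LP-R, Myh7 of the slow fiber markers lower and Cfd of the adipocyte markers lower. Myh1 was called in 2 probe sets, while others, at 0.19 (SE 0.16) and 0.09 (SE 0.08), were not called. The other fast fiber markers went both ways, none called. Myh2 (-0.05, SE 0.03), Pvalb (-0.09, SE 0.16) and Actn3 (-0.03, SE 0.03) were below CN-R. Tnnt3 (0.04, SE 0.05), Atp2a1 (0.02, SE 0.02) and Casq1 (0.006, SE 0.04) were above. Of 17 varying probe sets of slow fiber markers 15 had a mean below CN-R, against 66% of all varying probe sets. Myh7 differed by -0.39 (SE 0.24), and by -0.135 (SE 0.17) in its brighter probe set. Tpm3 differed by -0.28 (SE 0.11) and Casq2 by -0.21 (SE 0.05). The exceptions were other probe sets of Tpm3, at 0.19 (SE 0.45) and 0.03 (SE 0.06). In the early arrays all 13 varying slow fiber probe sets had a mean below CN, whereas 57.6% of all varying probe sets had one above. The list means of slow fiber markers were 8.87 to 9.02 in LP-R and 8.955 to 9.05 in CN-R. Cfd differed by -0.34 (SE 0.09), with no overlap, and the erythroid marker Hbb by -0.36 (SE 0.26). Their part in the late values of the chaperones was not tested. Of the 5 lists of other chaperone genes 0 genes were called in the late arrays. Cryab, the small heat shock protein alpha B-crystallin, whose symbol falls outside the rule, was 13.09 ± 0.03 (SD, n = 4) in LP-R and 13.15 ± 0.01 (SD, n = 3) in CN-R. Its groups did not overlap (exact permutation p 0.0286, the smallest that 3 against 4 rats allow), with a difference of -0.07 (SE 0.02) that was not called, and in LP it differed from CN by -0.01 (SE 0.05).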

How the data were processed

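Gene expression was measured in the gastrocnemius of 15 rats with 1 array each. The deposited values are log2 signals, summarized by the authors with the FARMS method, apart for the early and the late arrays, so CN and CN-R were not compared. No normalization was added. Precision is limited by how few arrays there are. The 57 control probe sets did not enter. Probe sets were named by GEO's platform annotation. Rank products ran over all pairs of arrays (100 permutations, seed 1, the permutation values of each direction for its own calls) in Python 3.11.15 with numpy 2.4.6. Limma 3.58.1 ran in R 4.3.3 with Benjamini-Hochberg adjusted p, and both methods covered all 31042 probe sets. Both were also run on simulated arrays with noise drawn apart for each probe set, which leaves out what the probe sets of a rat share. The outcome is not given here, so it is no support for the calls. Exact permutation tests are two-sided, over all splits, and unadjusted unless stated. Members and lists were chosen with earlier results of these data known, so they are no independent support for them. Named were genes called, the 5 of smallest limma p in each direction and comparison among varying members, and a list of stress-inducible genes and regulators. A gene with several probe sets is given by the called one, or else by the brightest that varies. The alternatives were quantile normalization, median centring, another prior, varying probe sets alone, a replicate block, CN-R replicate 4 as LP-R and each array omitted in turn. Chosen after seeing the data were a joined null and a term that splits replicate numbers 1 and 2 from 3 and 4. Protein sequences were not used here.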

Additional observations from a re-analysis of the deposited data

Results flagged for a closer look

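Of 69 groups of 4 rats examined for the named genes, 2 had a rat far from the rest, where chance alone marks about 1 in 20. Hspa5 in CN replicate 1 was 10.65, against 11.27 to 11.33 in the other CN rats, a gap of 0.913 of the range of the group. Hsp90ab1 in LP-R replicate 2 was 12.84, against 12.60 to 12.63 in the other LP-R rats, a gap of 0.882 of the range.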

How the results depend on the processing

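The 11 higher and 1 lower calls of LP became 0 and 0 by limma, and 0 and 0 among varying probe sets alone. Leaving out 1 rat gave 0 (without LP replicate 2) to 13 (without CN replicate 4) higher and 0 to 3 lower calls, and in LP-R 0 to 1 higher and 0 to 1 lower. Without LP replicate 1 there was 1 higher call and without LP replicate 3 there were 4. There were 2 higher calls in the late arrays once CN-R replicate 4 was moved to the restricted group. Equal replicate numbers were not taken as pairs, since not every pair correlated over 0.1 (-0.031 to 0.551 early, with 3 of 4 over 0.1, and 0.044 to 0.215 late), although 4 of 7 restricted rats correlated best with the control of their number. With the replicate block 13 members were called higher in LP and 1 lower in LP-R. For these alternatives, limma aside, calls over all probe sets are not given. A rise or fall in calls over the whole array thus cannot be told from one of the members. The median change over the members was -4.4e-05 with quantile normalization, -0.00067 with median centring and 0.092 among varying probe sets in LP, and 0.0025, 0.00043 and -0.033 in LP-R. Leaving out 1 rat turned the sign of 9 of 26 named changes in LP and 11 of 18 in LP-R. Among these, a call was made or lost with the sign for Dnajb1 in LP (-0.10 to 0.50 and -0.018 to 0.48 in its probe sets) and for Hspa1a in LP-R (-0.51 to 0.28). The causes were not tested. Few rats, and probe sets held nearly constant, limit what can be seen.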

Other observations

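Some inducible chaperones are measured only by probe sets with several symbols, which the rule left out, and none of these was called. The probe set of Hspa1b and Hspa1a had 11.43, 11.50, 11.60 and 11.64 in CN and 11.96, 12.41, 11.41 and 11.01 in LP, again with LP replicates 1 and 2 the highest and LP replicate 4 the lowest. Its log2 change was 0.155 (SE 0.31, pfp 0.059) in LP and -0.275 (SE 0.75) in LP-R. The probe sets of Hsp90aa1, the inducible Hsp90, and a pseudogene differed by 0.10 (SE 0.15) and -0.08 (SE 0.17) in LP, and by 0.01 (SE 0.18) and -0.10 (SE 0.16) in LP-R. That of Hspa8, the constitutive Hsp70, and Haus8l2 differed by 0.03 (SE 0.03) in LP and was nearly constant in the late arrays.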
